A study of Ovis aries with 9 samples.

Results

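MicroRNAs (miRNAs) of blood cells were followed through the small RNA libraries of sperm from F1 rams. The 4 miRNAs were miR-451, miR-486, miR-223 and miR-142, and with the 2 arms of miR-223 they gave 5 mature RNAs: miR-451a, miR-486-5p, miR-223-3p, miR-223-5p and miR-142-3p. None of them carried an ovine name in the deposited tables, where their reads are annotated as miRNA with no gene named. They were therefore found by sequence, as rows with the term miRNA and no ovine miRNA name that began with the first 18 bases of the mature RNA. The rule took 80 of the 19360 distinct miRNA sequences in the series.

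The 3 groups were OVER (overfeeding), RES (restricted feeding) and CON (standard feeding). The feeding was that of the mothers in gestation, as the series' title has it. All rams were labelled wild type, and all samples were semen sperm that had been put through a detergent step meant to lyse other cells. The labels give 3 samples a group, but within a group the 3 tables did not differ in sequences or read numbers, so a group was counted as 1 library, which may or may not be a pool of rams. The groups were therefore compared without replicates and without tests, and the intervals given cover the error of counting alone. The miRNA class held 1380832 reads in OVER, 1528187 in RES and 839260 in CON. Levels are given as RPM, reads per 1000000 miRNA reads of the library. A count of 0 allows up to 2.17 RPM in OVER, 1.96 in RES and 3.57 in CON.

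miRNAs are short RNAs that guide Argonaute proteins to matching messenger RNAs, mainly through the seed, bases 2 to 8 from the 5′ end. Most are cut from their hairpin by Dicer. miR-451 is a known exception: its hairpin is too short for Dicer, Argonaute 2 cuts it, and the product is then trimmed from the 3′ end. miR-451 and miR-486 are abundant in red blood cells and their precursors, and miR-486 is also made in muscle. miR-223 is the characteristic miRNA of neutrophils and other myeloid cells, and miR-142 is made in nearly all white blood cell lineages. Germ cells are better known for other miRNAs, such as miR-34c. In libraries of whole preparations, fewer cells of a type and less RNA per cell cannot be told apart.

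The commonest sequence of each miRNA over the 3 libraries is shown because it defines what was counted. Capitals mark the seed, and T stands for U as in the deposited tables.
miR-451a: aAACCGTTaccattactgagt
miR-486-5p: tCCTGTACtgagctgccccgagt
miR-223-3p: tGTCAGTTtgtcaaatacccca
miR-223-5p: tGTGTATTtgacaagctgagttg
miR-142-3p: tGTAGTGTttcctactttatgga
The 5 seeds all differ, so no 2 of these RNAs belong to 1 seed family.

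Of the 5 members, the RES library held mainly miR-451a and miR-486-5p, here called the red cell pair. It held hardly any of the miR-223 arms and miR-142-3p, here called the white cell members. The OVER and CON libraries held the reverse. Other listed RNAs of white cells did not all follow. miR-142-5p and miR-181a-5p were low in RES. miR-155-5p was lower in RES than in CON, but against OVER its interval spanned no difference. miR-150-5p, with 7 reads in OVER, 28 in RES and 7 in CON, was not low in RES. Of others abundant in red cells, miR-16-5p, miR-92a-3p and miR-25-3p were not 2-fold higher in RES than in CON. Against OVER, miR-16-5p was 2.46-fold higher in RES (2.40-fold to 2.52-fold), while miR-92a-3p and miR-25-3p were not higher. Reads of miR-451a numbered 7 in OVER, 1722 in RES and 3 in CON. Reads of miR-486-5p numbered 4 in OVER, 2150 in RES and 7 in CON. Only RES had more than 10 reads of either. The miR-223-3p reads numbered 487 in OVER, 10 in RES and 364 in CON, and the miR-223-5p reads 589 in OVER, 20 in RES and 1041 in CON. For miR-142-3p there were 61 reads in OVER, 1 in RES and 47 in CON. All 3 white cell members were thus low in the library in which both RNAs of the red cell pair were high.

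**Figure D1:**
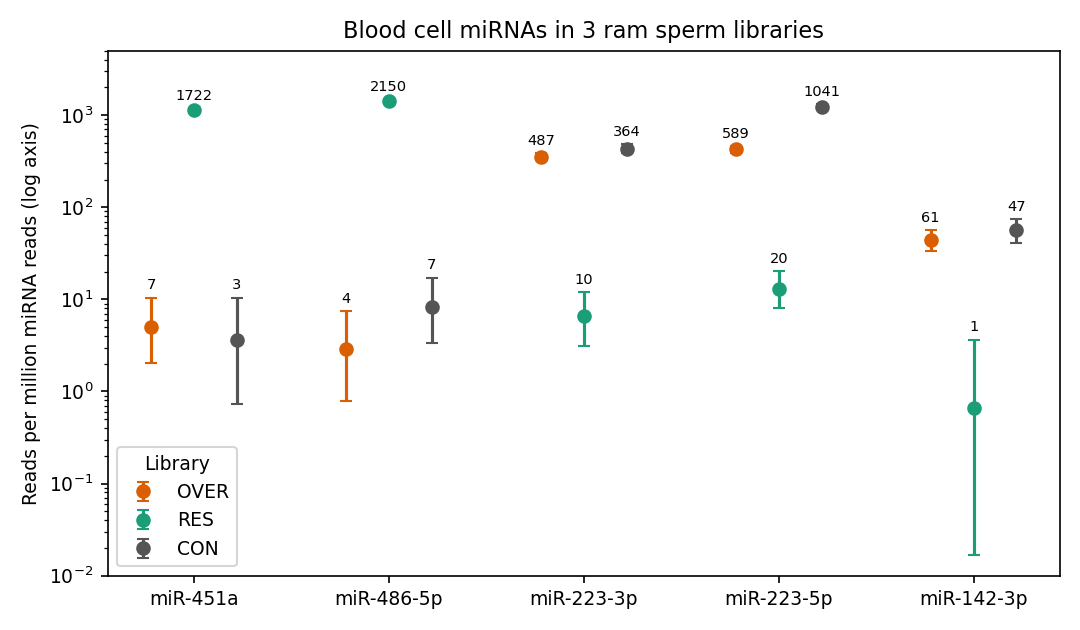
Reads per 1000000 miRNA reads (RPM, log axis) of the 5 blood cell miRNAs in the OVER, RES and CON libraries; points are single libraries, bars are exact Clopper-Pearson 95% intervals for counting error, and the number over each point is its read count. miR-451a and miR-486-5p stand at 1127 and 1407 in RES alone, and the miR-223 arms and miR-142-3p stand lowest in RES.

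Within the members, the red cell pair made up 0.958% of the reads of all 5 in OVER, 99.2% in RES (98.9 to 99.5%) and 0.684% in CON. The 5 together were a small part of the miRNA class in every library. They held 0.0831% of miRNA reads in OVER (exact Clopper-Pearson 95% interval 0.0784 to 0.0881%), 0.255% in RES (0.247 to 0.264%) and 0.174% in CON (0.165 to 0.183%). Of the miRNA reads without an ovine name they were 0.243% in OVER, 0.625% in RES and 0.471% in CON.

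Scaled to the miRNA class, miR-451a stood at 5.07 RPM in OVER (2.04 to 10.4), 1127 in RES (1074 to 1181) and 3.57 in CON (0.737 to 10.5). The RES share was 315-fold that of CON, with a counting interval of 108-fold to 1530.1-fold that is wide because CON had 3 reads. Against OVER, where 7 reads were found, RES was 222-fold higher (108-fold to 554-fold). The OVER and CON levels could not be told apart at this depth, with a log2 ratio of 0.50 and an interval of -1.63 to 3.09.

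The second red cell miRNA, miR-486-5p, stood at 2.90 RPM in OVER (0.789 to 7.42), 1407 in RES (1348 to 1468) and 8.34 in CON (3.35 to 17.2). Its RES share was 169-fold that of CON (81.7-fold to 420.1-fold) and 486-fold that of OVER (189-fold to 1784-fold). OVER and CON again overlapped, at a log2 ratio of -1.53 (-3.75 to 0.45). Within RES, miR-486-5p outnumbered miR-451a and made up 55.5% of the pair (53.9 to 57.1%).

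The myeloid miRNA was present on both arms. For miR-223-3p the level was 353 RPM in OVER (322 to 385), 6.54 in RES (3.14 to 12.0) and 434 in CON (390 to 481). The RES level was 66.3-fold below CON (35.6-fold to 139-fold) and 53.9-fold below OVER. OVER over CON had a log2 ratio of -0.30 (-0.50 to -0.10), which turned to 0.69 per all reads of the library.

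The other arm, miR-223-5p, reached 427 RPM in OVER (393 to 462), 13.1 in RES (7.99 to 20.2) and 1240.4 in CON (1166 to 1318). It was 94.8-fold lower in RES than in CON (61.05-fold to 156-fold) and 32.6-fold lower in RES than in OVER. Here OVER lay below CON as well, 2.91-fold (2.63-fold to 3.22-fold). That log2 ratio of -1.54 was -0.55, no longer 2-fold, per all reads.

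The pan-leukocyte miR-142-3p was the rarest of the white cell members. It stood at 44.2 RPM in OVER (33.8 to 56.7), 0.654 in RES (0.0166 to 3.65) and 56.0 in CON (41.1 to 74.5). The RES value is 1 read. The log2 ratio of RES to CON was -6.42, with a counting interval of -11.75 to -3.87. OVER and CON overlapped in their intervals, at a log2 ratio of -0.34 (-0.91 to 0.24) that turned to 0.64 per all reads.

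In order of level, the CON library had miR-223-5p first, miR-223-3p and miR-142-3p next, and the red cell pair last, with overlapping intervals for miR-486-5p and miR-451a. The OVER library had the same order of the first 3, with both arms of miR-223 within 1.21-fold of each other, and the pair at the bottom again overlapped. In RES the order was miR-486-5p, miR-451a, miR-223-5p, miR-223-3p and miR-142-3p, and the intervals of the last 3 overlapped between neighbours. Set among the 105 ovine names, miR-486-5p had 23 names above it in RES, 98 in OVER and 90 in CON. For miR-451a the names above were 25 in RES, 95 in OVER and 94 in CON. The place of miR-223-5p was the reverse, with 40 names above it in OVER, 82 in RES and 29 in CON.

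These ratios were set beside those of the miRNAs with an ovine name and at least 100 reads in the 2 libraries compared. Scaling to all reads in place of miRNA reads adds 0.99 to every log2 ratio of OVER over CON, 0.47 to RES over CON and 0.52 to OVER over RES. Each pair of libraries shares a library with the other pairs, so the comparisons are not independent. For RES over CON, 74 names were compared, of which 0% were higher by 2-fold or more and 25.7% lower by 2-fold or more. Of the 5 members, 4 had at least 100 reads in those libraries, and miR-142-3p had 48. Each of the 4 reached 100 reads only through the library where it was high, RES for the red cell pair and CON for the miR-223 arms, so the limit itself favours a difference and their number shows nothing further. The 74 log2 ratios ran from -3.16 (oar-mir-181a-2) to 0.92 (oar-mir-148a) around a median of -0.32. The red cell pair lay above that range at 8.30 and 7.40, and the miR-223 arms lay below it at -6.05 and -6.57. The members were chosen with earlier results of these data known, so this place outside the range is a description and no test.

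For OVER over CON, 19.7% of 76 names were higher by 2-fold or more and 5.26% lower by 2-fold or more, around a median log2 ratio of 0.29. Of the members, 3 had at least 100 reads there; 0 were higher by that much and 1, miR-223-5p, was lower, at -1.54. That value is inside the range of the ovine names, which ran from -1.81 (oar-mir-543) to 2.38 (oar-mir-30b).

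For OVER over RES, 36.2% of 80 names were higher by 2-fold or more and 5% lower by 2-fold or more, around a median of 0.69. The same 4 members had at least 100 reads, again each only through the library where it was high, and miR-142-3p had 61 reads in OVER and 1 in RES. The range of the names was -1.66 (oar-mir-323b) to 3.13 (oar-mir-127). The members lay outside it on both sides, at -7.80 for miR-451a, -8.92 for miR-486-5p, 5.75 for miR-223-3p and 5.03 for miR-223-5p. For members chosen with earlier results known, this too is only a description.

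**Figure D2:**
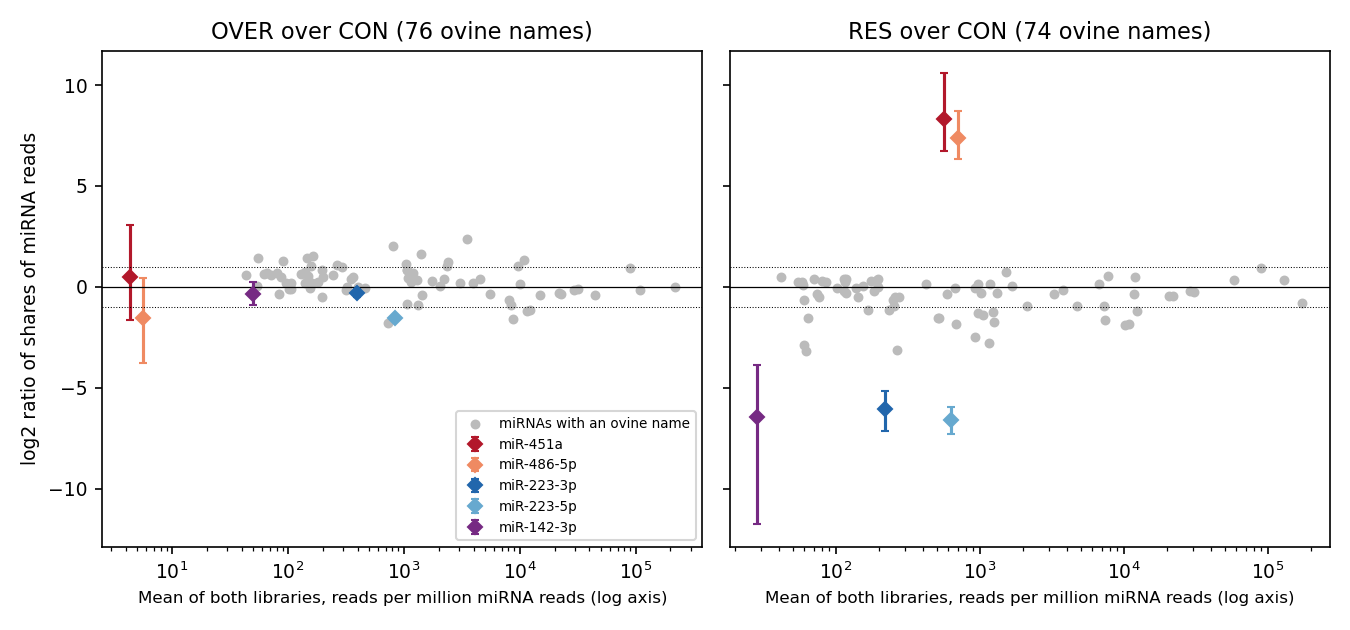
The log2 ratio of shares of miRNA reads for OVER over CON (left, 76 ovine names) and RES over CON (right, 74 ovine names) against the mean level of both libraries (log axis); grey points are miRNAs with an ovine name, diamonds are the blood cell miRNAs with counting intervals, and dotted lines mark 2-fold. At right the red cell pair lies above and the white cell members below every grey point.

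No ovine name had a pattern close to that of the red cell pair, which was chosen with earlier results of these data known. The OVER over CON ratios of the pair rest on 3 to 7 reads in each library. Likeness was measured as the distance between the log2 ratios OVER over CON and RES over CON, over the 3 libraries, for the 80 names with at least 100 reads in all. The nearest name to miR-451a was oar-mir-148a at a distance of 7.39, followed by oar-mir-3958 and oar-mir-30b. The same oar-mir-148a was nearest to miR-486-5p, at 6.93, followed by oar-mir-323a and oar-mir-323b. For all 3 white cell members the nearest were oar-mir-181a-2, oar-mir-221 and oar-mir-181a-1, at distances of 2.90 to 3.18 for miR-223-3p. The 2 oar-mir-181a entries come from duplicated genes of 1 mature RNA. For oar-mir-221 there were 627 reads in OVER, 83 in RES and 400 in CON, so it too was low in RES, at a log2 ratio of -3.13 to CON.

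The forms of miR-451a are shown because a few RES reads ran well past the commonest length. That length, 21 nt, held 73.2% of the RES reads. Reads of 18 to 29 nt were found there, nearly all of them nested in the longest form. Capitals mark the bases after the 18 that were matched.
miR-451a, 18 nt: aaaccgttaccattactg
miR-451a, 21 nt: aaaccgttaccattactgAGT
miR-451a, 23 nt: aaaccgttaccattactgAGTTT
miR-451a, 26 nt: aaaccgttaccattactgAGTTTAGT
miR-451a, 29 nt: aaaccgttaccattactgAGTTTAGTAAT
In RES the 21 nt form had 1243 reads, 72.2% of the miRNA, the 23 nt form 205 and the 22 nt form 122. The 26 nt form had 28 reads, the 29 nt form 4 and the 18 nt form 30. Of the 1722 RES reads, 98.8% (98.1 to 99.2%) agreed base for base with the 29 nt sequence as far as they went. Reads of 24 nt or more made up 2.90% (2.16 to 3.81%). For miR-223-5p in CON that share was larger, at 35.2%, but its commonest length, 23 nt, lies nearer to this limit. Of its CON reads, 29.5% were of 24 nt itself, and the longest had 27 nt. The 7 OVER and 3 CON reads were all of the 21 nt or 23 nt form, with 4 and 3 reads in OVER, and 2 and 1 in CON.

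Among rows annotated as miRNA, the RES reads of miR-486-5p covered a shorter range of lengths than those of miR-451a. Fewer of them shared the commonest length, with 50.9% at 23 nt against 73.2% of miR-451a at 21 nt. These RES reads were 18 to 24 nt long, and 95.3% were of 21 to 23 nt (94.3 to 96.2%). A further 268 RES reads with the same start had no annotation and averaged 24.5 nt, and 18 such reads of miR-451a averaged 29.6 nt. The 22 nt form and the 2 commonest 23 nt forms are shown because the latter differ in their last base.
miR-486-5p, 22 nt: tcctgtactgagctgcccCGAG
miR-486-5p, 23 nt, first form: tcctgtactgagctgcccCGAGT
miR-486-5p, 23 nt, second form: tcctgtactgagctgcccCGAGA
In RES the 22 nt form had 497 reads and the 21 nt form 401. Of the 1092 reads with 1 base after the 22 nt form, 856 ended in T, 200 in A, 27 in C and 9 in G. No genome was used here, so which of these bases the gene encodes was not determined, and the genome flag of the tables was Yes for all 4. The 2 such OVER reads and the 3 such CON reads all ended in T.

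**Figure D3:**
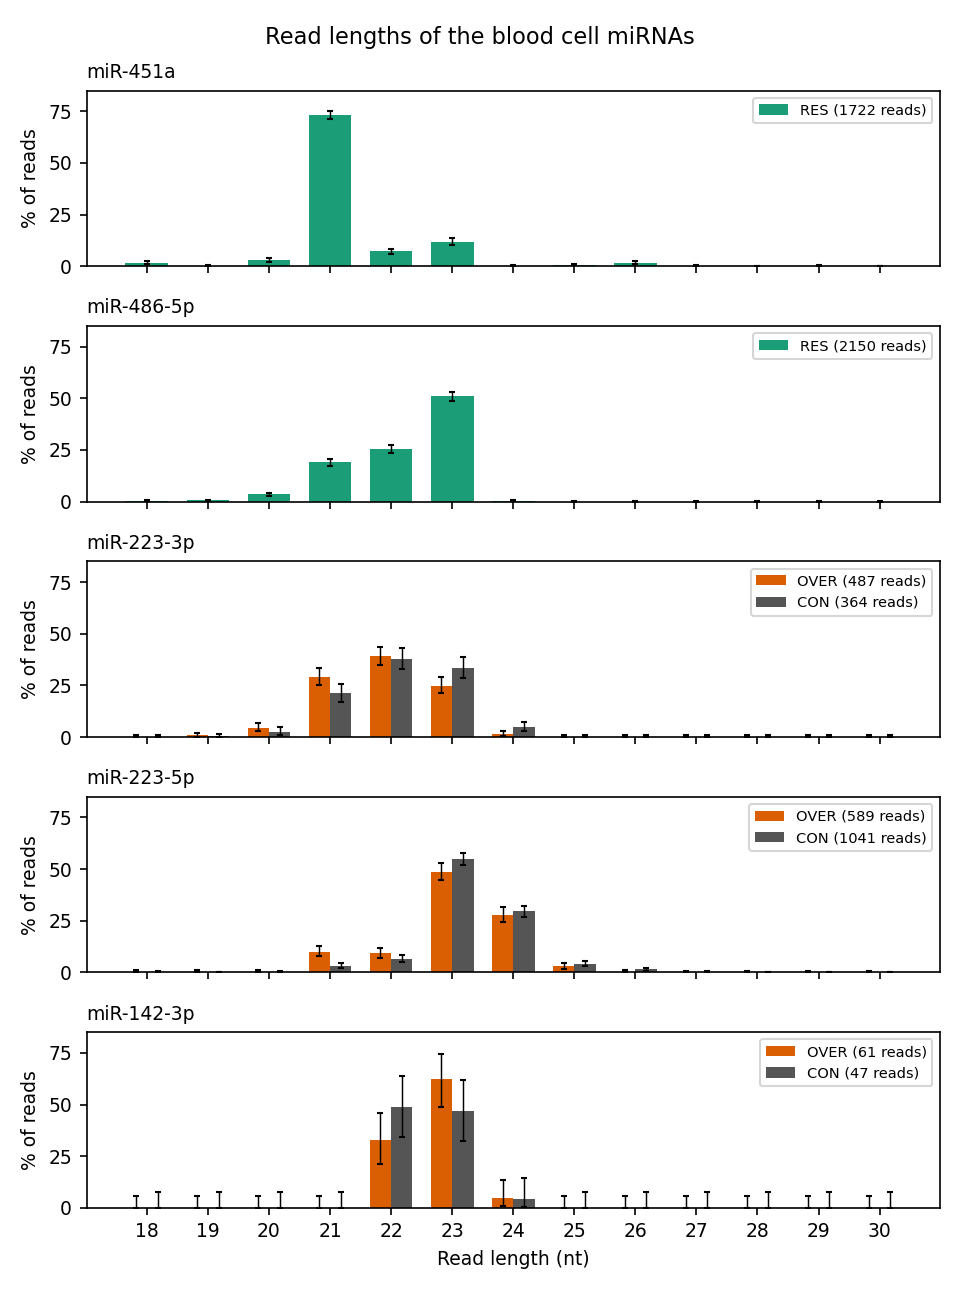
Read length (nt) against the percentage of each miRNA's reads, for miR-451a and miR-486-5p in RES and for the white cell miRNAs in OVER and CON; bars carry exact 95% intervals for counting error. miR-451a peaks at 21 nt with a small group at 26 nt, and miR-486-5p and miR-223-5p peak at 23 nt.

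The miR-223 arms differed in length and in the bases at their 3′ ends. Which of these bases the gene encodes was not determined. miR-223-3p was commonest at 22 nt in all 3 libraries, and 93.2% of its OVER reads and 92.6% of its CON reads were of 21 to 23 nt. miR-223-5p was commonest at 23 nt, and reads of 24 nt or more made up 31.2% of it in OVER (27.5 to 35.2%) and 35.2% in CON (32.3 to 38.1%). Of the reads with 1 base after the 22 nt form of miR-223-3p, 78 of 118 in OVER and 69 of 121 in CON ended in T, and 32 in OVER and 45 in CON ended in A. After the 23 nt form of miR-223-5p, 84 of 164 reads in OVER and 106 of 306 in CON ended in A, and 70 in OVER and 162 in CON ended in G. The mean length of miR-223-5p reads was 23.02 nt for OVER, against 23.3 nt for CON, and that of miR-223-3p reads was 21.9 nt for OVER, against 22.2 nt for CON. All miRNA reads averaged 22.03 nt in OVER, 22.4 nt in RES and 22.6 nt in CON.

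The 5′ arm outnumbered the 3′ arm of miR-223 in every library, although the 3′ arm is the one usually named as the guide strand in mouse and human. The 5′ arm held 54.7% of the reads of both arms in OVER (51.7 to 57.7%), 66.7% in RES (47.2 to 82.7%, 30 reads) and 74.1% in CON (71.7 to 76.4%). The intervals of OVER and CON do not overlap, and that of RES overlaps both. With reads of 20 to 24 nt alone the share was 53.96% in OVER and 73.0% in CON, and with all rows that begin with either arm, whatever their annotation, 53.7% in OVER and 73.5% in CON.

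Nearly all reads began at the same base. Counting starts up to 2 bases away as well, 97.99% of miR-223-3p reads in OVER and 96.8% in CON began at the mature start, and 98.99 to 100% of those of miR-223-5p, miR-451a and miR-486-5p in the 3 libraries. miR-142-3p, which is known for 5′ variants with a shifted seed, had the largest share of other starts, with 11 reads starting 1 base downstream and 2 reads starting 2 bases downstream in OVER, against 61 at the mature start. In CON these were 2, 3 and 47 reads. The commonest lengths of miR-142-3p were 22 and 23 nt, with 20 and 38 reads in OVER and 23 and 22 in CON, and the single RES read had 24 nt.

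A list of 16 other mature miRNAs that blood cells make was set beside them. In RES over CON, 7 of them had at least 100 reads, of which 0 were higher by 2-fold or more and 3 lower, against 0% and 25.7% of the ovine names, with a median log2 ratio of -0.43 against -0.32. In OVER over CON, 8 had at least 100 reads, of which 1 was higher by 2-fold or more and 2 lower, against 19.7% and 5.26% of the ovine names, with a median of 0.12 against 0.29. In OVER over RES, 9 had at least 100 reads, of which 3 were higher by 2-fold or more and 1 lower, against 36.2% and 5% of the ovine names, with a median of 0.67 against 0.69. The list and the ovine names are not separate sets. All reads of miR-25-3p, miR-150-5p and miR-181a-5p, and most of miR-16-5p, carry an ovine name too. Most of the listed RNAs are also made by many other tissues.

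miR-144 comes from the same primary transcript as miR-451 in human and mouse. No miRNA row held the known first bases and inner bases by which either of its arms was sought, which allows up to 1.96 RPM of such reads in RES, against 1127 for miR-451a there. The same search gave 0 reads for the 3′ arm of miR-486. Forms that differ in these bases would not be counted. Of other miRNAs that are abundant in red cells, miR-16-5p had 5810 RPM in OVER, 14291 in RES and 19271 in CON, and miR-92a-3p 172 in OVER, 154 in RES and 489 in CON. The RES over CON log2 ratio of miR-92a-3p was -1.67. Those of miR-16-5p and miR-25-3p were -0.43 and -0.36, with the sign turned on the scale of all reads, and miR-25-3p had 4159 RPM in OVER, 2840 in RES and 3638 in CON. miR-15a-5p and miR-15b-5p, relatives of miR-16, had RES over CON log2 ratios of 0.17 (-0.63 to 1.02) and 0.07 (-0.11 to 0.26).

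Among the white cell RNAs of the list, the partner arm miR-142-5p was also lowest in RES, with 55 reads in OVER, 9 in RES and 24 in CON. The lymphocyte miRNA miR-150-5p had 7, 28 and 7 reads in OVER, RES and CON. For miR-155-5p of activated lymphocytes and macrophages these were 25, 19 and 29 reads. Scaled to miRNA reads, miR-150-5p was 2.20-fold higher in RES than in CON, with an interval of 0.938-fold to 5.96-fold. By the same scaling miR-155-5p was 2.78-fold lower in RES than in CON (1.51-fold to 5.25-fold). Its OVER over RES log2 ratio was 0.54 (-0.38 to 1.48). miR-181a-5p, which acts in lymphocyte development, was 9.32-fold lower in RES than in CON (5.50-fold to 16.7-fold) and miR-24-3p 4.74-fold lower. miR-146-5p, a brake on inflammatory signalling, was more alike across libraries, at 22942 RPM in OVER, 21289 in RES and 17256 in CON. miR-126-3p, of endothelium and platelets, had 87.6 RPM in OVER (72.7 to 104.7), 38.6 in RES (29.4 to 49.8) and 46.5 in CON (33.0 to 63.5), with overlapping intervals for RES and CON.

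**Figure D4:**
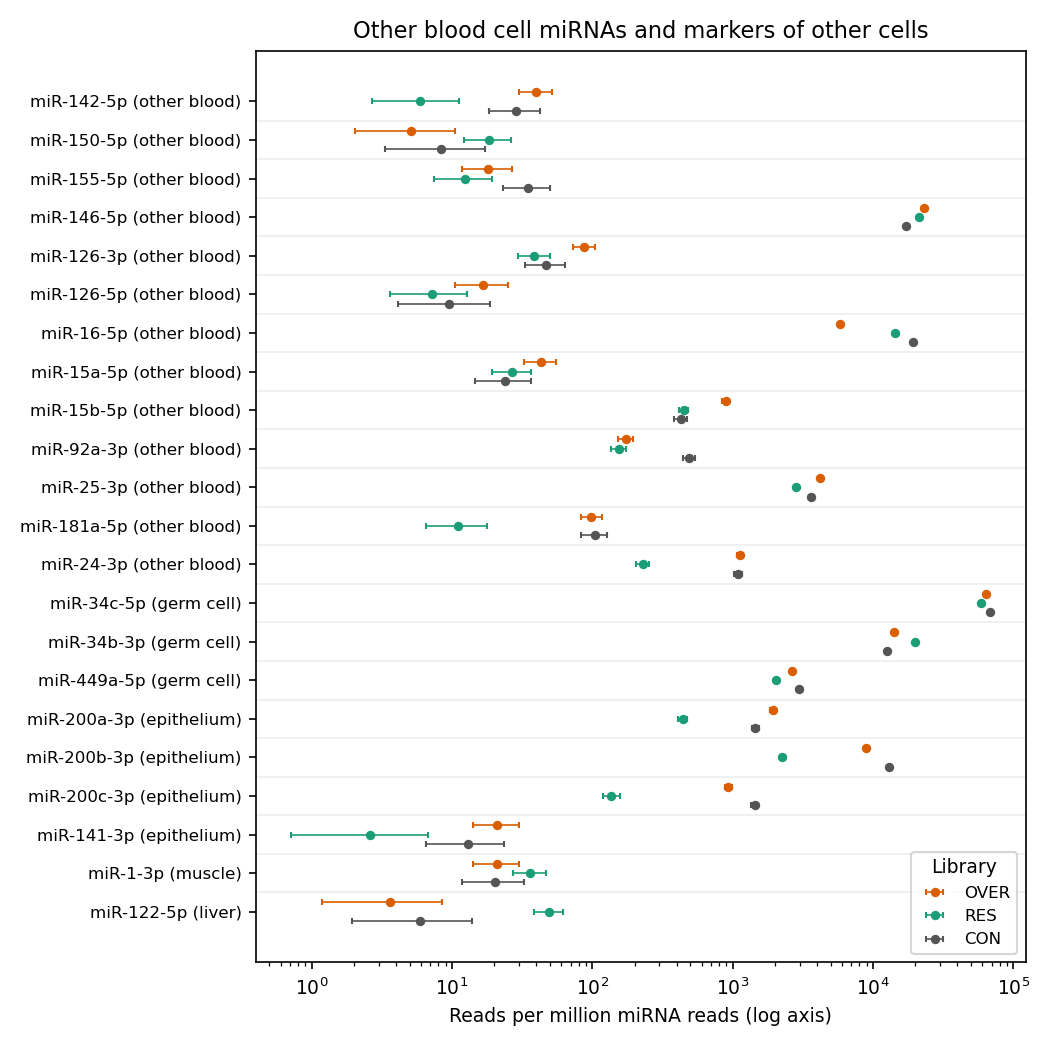
Reads per 1000000 miRNA reads (RPM, log axis) of other blood cell miRNAs and of miRNAs that mark germ cells, epithelium, muscle and liver, each with at least 20 reads, in the OVER, RES and CON libraries; bars are exact 95% intervals for counting error. The germ cell miR-34c-5p is the highest of those plotted in all 3 libraries, the epithelial miRNAs are lowest in RES, and miR-122-5p is highest in RES.

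Markers of other cells moved with the split between libraries in part. The germ cell miRNAs, of which 3 of 4 had reads (miR-34c-5p, miR-34b-3p and miR-449a-5p), summed to 80696 RPM in OVER, 81093 in RES and 84079 in CON. The epithelial list, with 4 of 5 found and miR-429-3p at 0, summed to 11762 in OVER, 2845 in RES and 15828 in CON. It was low in RES, as the white cell members were. miR-122-5p, a liver miRNA also known from plasma, had 5 reads in OVER, 75 in RES and 5 in CON, and was 8.24-fold higher in RES than in CON (3.38-fold to 26.1-fold). The muscle list summed to 29 reads in OVER, 63 in RES and 18 in CON, with miR-1-3p at 29, 55 and 17 reads and at most 7 reads of miR-206-3p and 1 of miR-133a-3p in a library. The rows named oar-mir-133, which the start matched for miR-133a-3p mostly does not take in, had 0 reads in OVER, 17 in RES and 2 in CON, also highest in RES. The part of these other cells in the levels of the blood cell miRNAs was not tested. The libraries also differed in short reads, with 29.6% of all OVER reads, 10.3% of RES reads and 5.98% of CON reads no longer than 20 nt, and the part of this difference was not tested either.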

How the data were processed

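Small RNA libraries of ram semen sperm were analysed from 9 tables, 3 in each of the groups OVER, RES and CON. Per the file headers, the authors' tables give each distinct sequence with its raw read count, a genome flag and an annotation; the counts are as deposited, without normalization. Of tools, edgeR is named in the submitters' processing notes. Aligner and build: not given in the sources used here. Within a group, sequences, counts and genome flags were the same in all 3 tables (annotation sets differed in 0 to 3 sequences), so a group counts as 1 library and no test was made.

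The miRNA class was every sequence with the term miRNA or an ovine miRNA name; antisense terms were left out. No table of mature sequences was available, so the commonest miRNA sequence beginning with up to 7 known first bases of each RNA (for most listed miRNAs also holding a second stretch of 7 known bases) was read from the files, and its first 18 bases were matched. The 5′ arm of miR-223 was taken in the form found in these libraries, since the human form had no reads there. miR-146a and miR-146b share these bases and were counted as 1. Ratios are of shares of miRNA reads, with exact binomial 95% intervals, and shares have exact Clopper-Pearson intervals; a 0 allows up to 3 reads. Named were all members, the other blood cell miRNAs with at least 100 reads, the marker lists, and the 3 nearest ovine names. Members and lists were chosen with earlier results of these data known. Reads with several ovine names count in full for each. Alternatives were all reads as denominator, TMM (edgeR 4.0.16), DESeq2 1.42.0 size factors, 16 or 20 bases, genome-matching reads, 20 to 24 nt, any annotation, 5′ ends within 2 bases and no single-read sequences. The calculation of ratios and intervals was checked on simulated data. Python 3.11.15 and scipy 1.17.1 were used.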

Additional observations from a re-analysis of the deposited data

Results flagged for a closer look

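Reads that begin with the first 18 bases of miR-486-5p were also found outside the rows counted here, above the CON level. In RES there were 268 such reads, in 57 sequences, all without annotation and without a genome match, against 0 in OVER and 0 in CON. They made up 11.1% of all RES reads with this start and averaged 24.5 nt, longer than the 22.2 nt of the reads counted. For miR-451a there were 18 such reads in RES, averaging 29.6 nt, against 0 in OVER and 0 in CON. OVER and CON held only 3 to 7 counted reads of either RNA, too few for such shares to show. Reads of this kind were not limited to RES or to these RNAs: miR-223-3p had 25 in OVER (4.88% of its reads with this start), 0 in RES and 16 in CON (4.21%), and miR-223-5p had 4 in OVER, 0 in RES and 12 in CON. Adding them left the RES over CON log2 ratios at 7.57 for miR-486-5p and 8.32 for miR-451a.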

How the results depend on the processing

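The 2 sums, of the red cell pair and of the white cell members, gave 6 log2 ratios, each computed under 11 alternatives (10 planned, 1 chosen after seeing the data: no sequences that carry another RNA class). Of the 66 values, 61 stayed within the counting interval and 5 moved, all of them sums of the miR-223 arms and miR-142-3p. Their OVER over CON log2 ratio, -1.07 on miRNA reads, was -0.084 on all reads, -1.32 with TMM and -1.37 with DESeq2 size factors, and their OVER over RES log2 ratio, 5.34, was 4.73 with TMM and 4.66 with DESeq2. These scalings shift every ratio alike, by 0.99, -0.25 and -0.30 log2 for OVER over CON. The red cell pair had 11 reads in OVER and 10 in CON, so its intervals are wide and staying within them shows little. Its OVER over CON log2 ratio, -0.58 (-1.96 to 0.81), was 0.41 on all reads and still counts as within. All counted member reads matched the genome, so the genome-matching alternative left their counts unchanged. For RES over CON the red cell pair stayed at 7.71 to 8.20 and the white cell members at -6.77 to -5.95. Of 165 values of single members, 157 stayed within the interval, 8 moved and 0 of those at least 2-fold apart changed sign. On all reads, OVER over CON turned to 0.69 for miR-223-3p and 0.64 for miR-142-3p, neither at least 2-fold apart. The 1 to 20 reads behind some low levels limit the fold values, and 1 library a group leaves the spread between rams unknown. Leaving out replicates was not possible because the tables of a group are identical. No paired analysis was possible because the 3 tables of each group are the same and count as 1 library.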
